A study of Mus musculus with 8 samples.

Results

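The genes described here are 6 genes of nitric oxide, arginine and itaconate metabolism, namely Nos2, Ass1, Asl, Slc7a2, Gch1 and Acod1. They were chosen by name, and all 6 were found among the 21080 gene symbols of the tables. Expression was measured by RNA-seq in mouse bone marrow-derived macrophages (BMDMs), which are grown from bone marrow cells with the growth factor M-CSF. Nudt21-cKO mice carried Nudt21 fl/fl alleles together with LysM-Cre, a Cre expressed in myeloid cells that removes exons 2 and 3 of Nudt21. WT mice were littermates of the same sex that carried the LysM-Cre as well, so the Cre was common to all groups, and the background was C57BL/6. The 4 groups were WT and cKO BMDMs at 0 h, and WT and cKO BMDMs that received IFNγ overnight and then LPS for 4 h. Each group held 2 samples and every sample was a pool of cells from 2 mice, so the spread between samples is a spread between pools.

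Most of these genes act on arginine, and nitric oxide and itaconate are both products of activated macrophages. Nos2 encodes inducible nitric oxide synthase, which turns arginine into nitric oxide and citrulline, and it is a classical marker of macrophages activated by IFNγ and LPS. Slc7a2 encodes a transporter that brings arginine into the cell, Gch1 the rate-limiting enzyme for the cofactor tetrahydrobiopterin (BH4) that the synthase needs, and Ass1 and Asl the enzymes that rebuild arginine from citrulline. Acod1 (also called Irg1) encodes the mitochondrial enzyme that makes itaconate from the citric acid cycle intermediate cis-aconitate. Nudt21 encodes CFIm25, a subunit of cleavage factor I that binds UGUA in nascent RNA and takes part in the choice of the polyadenylation site.

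In the annotation of GRCm38 (GENCODE M21), Nos2 lies on chromosome 11 from 78920787 to 78960254 and Slc7a2 on chromosome 8 from 40862396 to 40922308, both on the plus strand. Ass1 occupies chromosome 2 from 31470207 to 31520672, again on the plus strand. Asl lies on the minus strand of chromosome 5 from 130011258 to 130029247. Chromosome 14 holds Gch1 from 47153895 to 47189413 on the minus strand and Acod1 from 103046977 to 103056573 on the plus strand. Because the deleted gene encodes a UGUA-binding protein, UGUA was counted on the mRNA strand of each annotated 3'UTR, and the copy nearest to the 3' end is shown for the 2 genes that were called between genotypes at 4 h. Each lies in the last exon, is written 5' to 3' as RNA, and has UGUA in capitals.
Nos2: gggccuuuccUGUAuaauuccuug
Gch1: uguauguauaUGUAuguuacugaa
The Nos2 stretch spans chr11:78960164-78960187 in exon 27 of 27, with UGUA ending 77 bases before the annotated end of the transcript. The Gch1 copy lies at chr14:47153931-47153954 (minus strand, exon 6 of 6), and its UGUA ends 46 bases before the end. The 3'UTR of Nos2 has 502 bases and 3 UGUA, and that of Gch1 1903 bases and 10. Among the other genes, Acod1 has 5 UGUA in 1065 bases, Slc7a2 37 in 5774 bases and Ass1 2 in 255 bases, whereas Asl has 0 in a 3'UTR of 52 bases. Of 15355 genes with a 3'UTR of at least 50 bases, 86.6% hold at least 1 UGUA, with a median of 5 per kilobase. The 6 genes ranged from 0 to 7.84 per kilobase. A match is a description of letters and not a used site, and the position of transcript ends was not analysed here.

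The values are read coverage per base of each gene, without scaling between samples, and their sums ranged from 14950347 to 17954882 per sample. Nudt21 was measured at 158 and 172 in cKO against 718 and 641 in WT at 0 h, and at 142 and 115 against 547 and 575 at 4 h, as the labels require. Of the 7 macrophage markers, 1 was called higher (Cd68) and 2 lower (Adgre1, Fcgr1) in cKO at 0 h, and 2 higher (Cd68, Lyz2) at 4 h, by the call rule given with the comparisons (8.99% and 5.61% of all genes were called higher and lower at 0 h, 20.8% and 4.17% at 4 h). After each sample was centred on its median, 1 was higher (Cd68) and 3 lower (Adgre1, Fcgr1, Csf1r) at 0 h, against 7.25% and 6.98% of all genes. At 4 h 1 was higher (Cd68) and 2 lower (Adgre1, Fcgr1) on that scale, against 10.4% and 9.90%. The part of the macrophage markers in the results was not tested. All 7 were above 0 in every sample, with a summed coverage of 118000 to 131000 at 0 h in both genotypes, 50600 to 55400 in WT and 61800 to 64900 in cKO at 4 h. The neutrophil and granulocyte precursor markers summed to 22500 to 24400 in WT and 26100 to 34700 in cKO at 0 h, and to 17500 to 21600 in WT and 21900 to 24900 in cKO at 4 h. Single members differed in direction, and at 4 h Camp was called higher in cKO (0.66, not after centring) and Mpo lower after centring only (-0.71). Elane was lower in cKO at 4 h without overlap (97 and 103 in WT against 90.2 and 90.9) and was not called. Retnlg stood at 48.3 and 45.4 in WT against 20.8 and 28.3 in cKO at 0 h, and at 1.74 and 5.28 in WT at 4 h, where both cKO samples were listed at 0. At 4 h it passed the filter on low values through its WT values alone, so no fold and no test is given for it there. Ly6g, a defining neutrophil marker of that list, was listed at 0 in 3 of the 8 samples, and the part of these cells in the results was not tested. The lists for B cells, NK cells, mast cells and basophils, and erythroid cells summed to at most 10.9 in any sample. Dendritic cell, T cell, fibroblast and endothelial markers summed to at most 200 in any sample, with Cd3e at 0 in 7 of the 8. Among these low genes, Pecam1 was called lower in cKO at both times (-1.15 and -1.02) and Cdh5 at 0 h. Col3a1 was called higher at both times (1.07 and 1.22), but not after centring at 4 h (0.88). Pdgfra was called higher at 0 h, and at 4 h Zbtb46 was called higher and Xcr1 lower. The part of these markers in the results was not tested either. In such bulk samples fewer cells of a type and less RNA per cell cannot be told apart.

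At 0 h, Nos2 was listed at 0 in all 4 samples, while none of 23 housekeeping genes was listed at 0 in any sample. Asl was the highest of the 6 genes per base in WT, at 584 and 608, followed by Gch1 at 298 and 354, and Slc7a2 at 137 and 178. Ass1 (90.1 and 120) and Acod1 (88.4 and 95.4) came last of the detected genes, and their ranges overlapped. In cKO BMDMs at 0 h, Asl (506 and 565) was highest and Gch1 (500 and 462) next, with no overlap. Slc7a2 (186 and 133) and Acod1 (98.1 and 183) overlapped, followed by Ass1 at 57.6 and 77.7. All 6 genes together held between 0.0076% and 0.00856% of the summed coverage at 0 h.

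**Figure D1:**
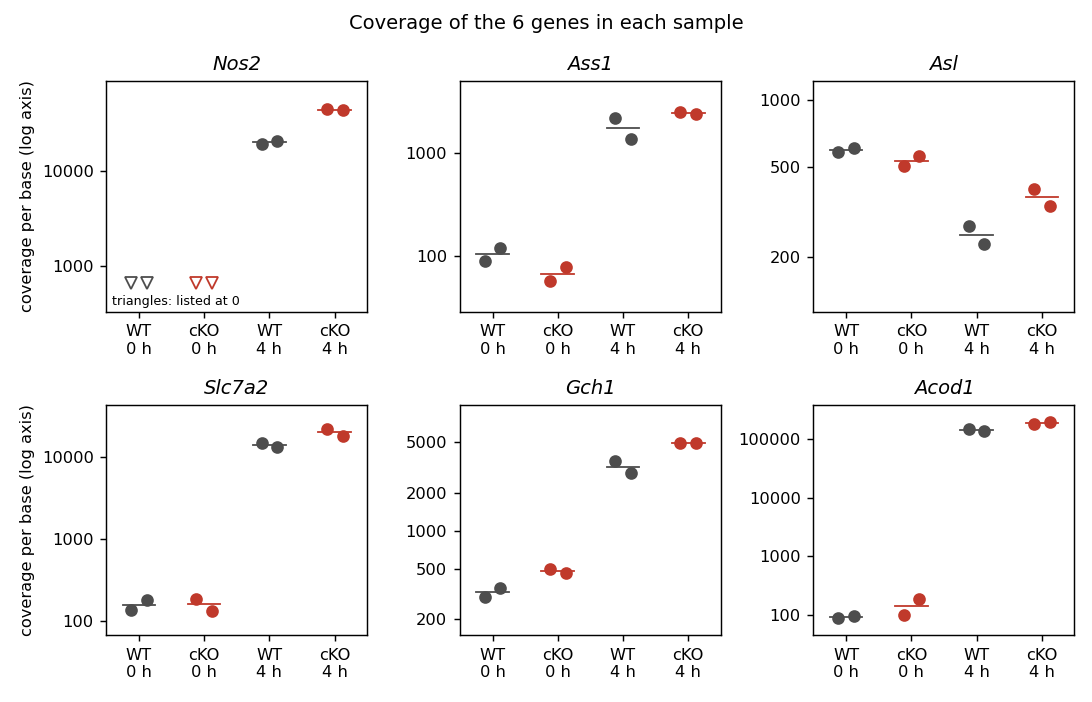
Coverage per base of each gene in each sample, on log axes whose range differs between panels. Points are samples (2 per group), lines are group means, grey is WT, red is cKO, and open triangles mark values listed at 0. At 4 h both cKO samples lie above both WT samples in all 6 panels, as they do for 51.1% of all genes tested.

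After IFNγ/LPS for 4 h, the 6 genes were ordered the same way in both genotypes, and no neighbouring ranges overlapped. Acod1 was highest, followed by Nos2, Slc7a2, Gch1, Ass1 and Asl. Acod1 reached 149439 and 140738 in WT and 182337 and 195641 in cKO. With these levels it ranked 11 of 21080 genes in WT and 7 in cKO, and held 0.951% and 1.07% of the summed coverage. Nos2 stood at 19483 and 20684 in WT against 44731 and 43709 in cKO, which placed it at rank 97 and rank 46. Of the 2450 genes listed at 0 in all 0 h samples, Nos2 had the highest coverage at 4 h, ahead of Serpina3f, a serine protease inhibitor gene, at a mean of 5634. Slc7a2 was measured at 15161 and 13262 in WT and at 21961 and 18247 in cKO. Gch1 stood at 3548 and 2875 in WT against 4952 and 4914 in cKO, and Ass1 at 2209 and 1368 in WT against 2534 and 2420 in cKO. Asl stayed far lower, at 275 and 227 in WT against 401 and 338 in cKO. Together the 6 genes took 1.22% and 1.2% of the summed coverage in WT and 1.48% in each cKO sample.

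Within each genotype, 4 h was compared with 0 h by limma after adding 0.1 to the coverage and taking log2, for genes whose mean coverage was 0.5 or more. Calls follow the rule of the study, which asks for more than a 1.5-fold change together with an unadjusted p under 0.05, and adjusted p values are those of limma with Benjamini-Hochberg adjustment over all genes tested. Over all genes tested, the median log2 fold change with stimulation was -1.27 in WT and -1.05 in cKO, so each value is followed by the value after every sample was centred on its median. The times were deposited as separate tables, in which no scaling between samples was found. Nos2 passed the filter on low values through its 4 h values alone, so it is described by the levels above, with no fold and no test. Of the other 5 genes, 4 were called higher in WT (11.9% of 16002 genes were) and 1 lower (55.1% were). In cKO 4 were called higher as well (13.7% of 16223 genes were) and 0 lower (53.2% were). After centring 4 were called higher and 0 lower in WT (33.5% and 22.4% of all genes), and 5 higher and 0 lower in cKO (32.7% and 23.2%).

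Acod1 presented a log2 fold change of 10.62 in WT (standard error 0.13, 1580-fold, adjusted p = 0.00178 by limma) and 10.46 in cKO (standard error 0.38, 1410-fold, adjusted p = 0.00153), or 12.08 and 11.66 after centring. The arginine transporter Slc7a2 rose by 6.51 in WT (standard error 0.21, 90.9-fold, adjusted p = 0.00196 by limma) and by 6.99 in cKO (standard error 0.24, 127-fold, adjusted p = 0.00146), with centred values of 7.96 and 8.19. Ass1 rose by 4.06 in WT (standard error 0.34, 16.7-fold) and by 5.21 in cKO (standard error 0.19, 37-fold), and by 5.51 and 6.41 after centring. For Gch1 the values were 3.30 in WT (standard error 0.20, 9.83-fold) and 3.36 in cKO (standard error 0.09, 10.3-fold), centred 4.75 and 4.56. Adjusted p values of Ass1 and Gch1 by limma were 0.00519 and 0.00345 in WT and 0.00158 and 0.00126 in cKO.

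Ass1 and Asl, which encode consecutive enzymes of the same route back to arginine, moved apart with stimulation. The ratio of Ass1 to Asl coverage was 0.154 and 0.197 in WT BMDMs at 0 h, where cKO BMDMs had 0.114 and 0.137. At 4 h it was 8.04 and 6.03 in WT against 6.32 and 7.16 in cKO. Being a ratio within a sample, it does not depend on the scaling of samples. Asl was lower at 4 h in WT by the deposited values, with a log2 fold change of -1.25 (standard error 0.16, adjusted p = 0.0105 by limma), but the centred value was 0.20 and not called. In cKO the log2 fold change of Asl was -0.54, below the fold needed for a call, and centring turned it to 0.67, which was called higher.

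**Figure D2:**
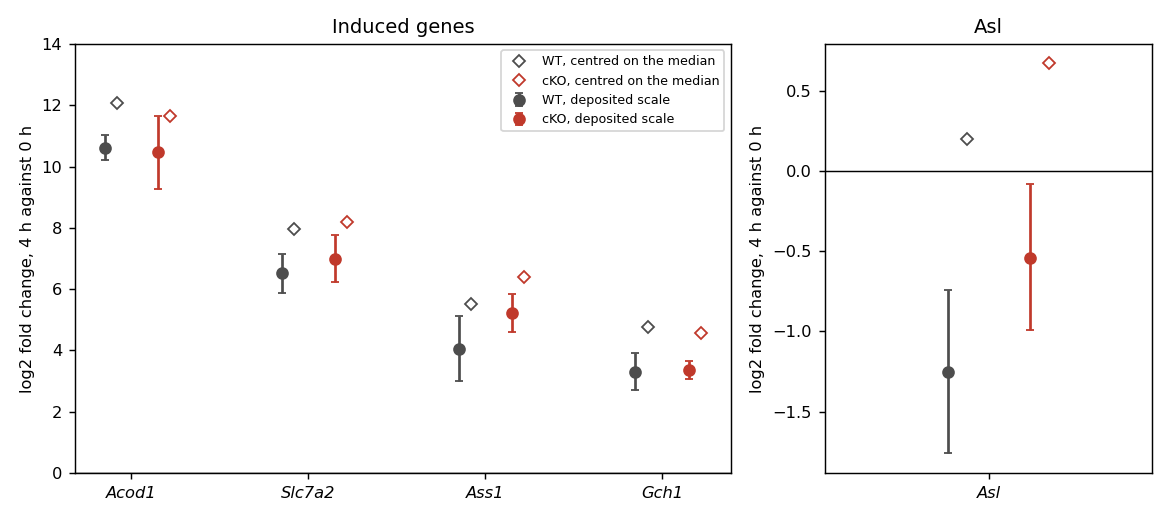
Log2 fold change of coverage at 4 h against 0 h for 5 genes, with WT in grey and cKO in red. Filled points are values on the deposited scale with 95% intervals and open diamonds are the values after centring each sample on its median. The 4 induced genes are above 0 on both scales, whereas Asl lies below 0 on the deposited scale and above 0 after centring.

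Between genotypes at 4 h, all 6 genes had both cKO samples above both WT samples, as did 51.1% of the 14950 genes tested. The median log2 fold change of the 6 genes was 0.54 against 0.31 for all genes, and each of the 6 was above the median of all genes. By the rule of the study Nos2 and Gch1 were called higher in cKO and 0 were called lower, against 20.8% and 4.17% of all genes. Nos2 was higher by 1.14 on the log2 scale (standard error 0.10, 95% interval 0.82 to 1.46), a 2.2-fold difference with an adjusted p of 0.0478 by limma. It was the only 1 of the 6 with an adjusted p under 0.05, which 3.86% of all genes reached together with the fold. Centring left Nos2 at 0.80 and still called (adjusted p = 0.0829 by limma), and 10.4% of all genes were called higher and 9.90% lower on that scale. Its log2 fold change was at percentile 85.4 of all genes. Leaving out either cKO sample at 4 h kept Nos2 as the only gene of the 6 to be called.

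Gch1 was higher in cKO by 0.63 (standard error 0.16, 95% interval 0.14 to 1.12, adjusted p = 0.105 by limma). It was not called after centring, at 0.29, or at equal summed coverage, at 0.42.

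The remaining genes were not called at 4 h. Asl was higher by 0.56 (95% interval 0.00 to 1.12, adjusted p = 0.145 by limma), just under the fold of 1.5 at 1.47-fold. Ass1 was higher by 0.51 (95% interval -0.42 to 1.44, adjusted p = 0.325 by limma), and its WT samples were the further apart. Leaving out the first WT sample gave 0.86, which was called, and leaving out the second gave 0.16. Slc7a2 differed by 0.50 (95% interval -0.02 to 1.01, adjusted p = 0.153 by limma). Acod1, the most abundant of the 6, differed by 0.38 (95% interval 0.04 to 0.72, adjusted p = 0.126 by limma), a 1.3-fold difference. After centring, these 4 genes were between 0.04 and 0.22 and were not called.

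**Figure D3:**
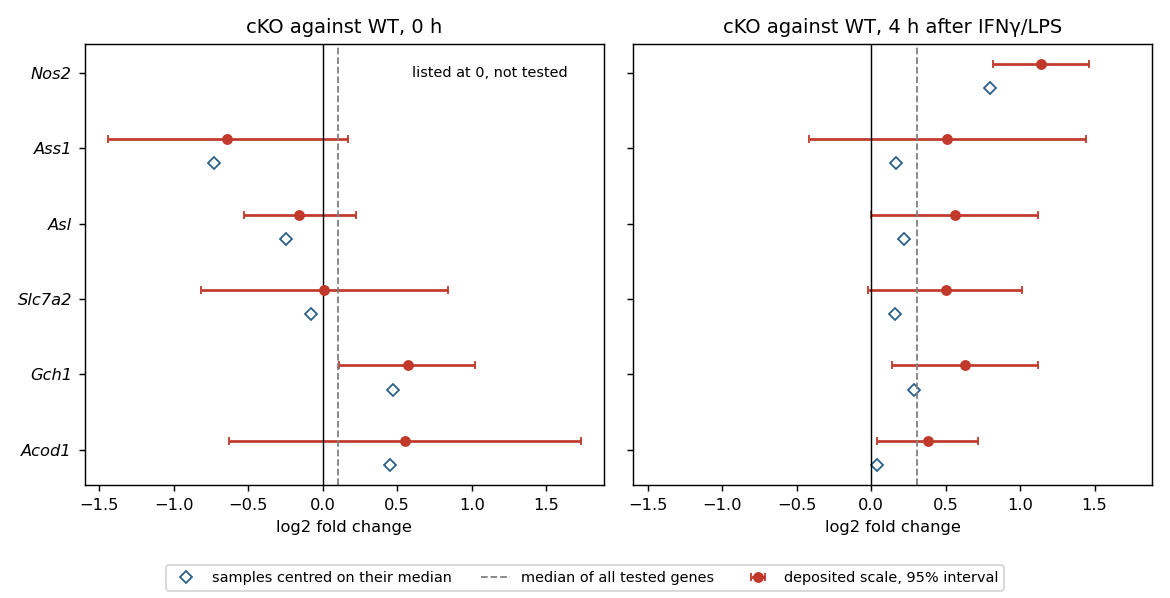
Genotype effect (cKO against WT, log2 fold change) at 0 h on the left and 4 h on the right. Red points are values on the deposited scale with 95% intervals, open diamonds are values after centring each sample on its median, and the dashed line is the median of all tested genes (0.10 at 0 h and 0.31 at 4 h). Nos2 at 4 h is the only value with an adjusted p under 0.05.

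At 0 h, 5 of the 6 genes passed the filter on low values, and 0 of them were called between genotypes by limma, on the deposited scale and after centring alike. Among all 16251 genes the same rule called 8.99% as higher in cKO and 5.61% as lower, against 7.25% and 6.98% after centring, and 1.03% had an adjusted p under 0.05 together with the fold. Gch1 was higher in cKO at 0 h by 0.57 (95% interval 0.11 to 1.02, adjusted p = 0.191 by limma), a 1.48-fold difference that fell short of the fold needed. Its unadjusted p by limma was 0.0286, and 0.0611 after centring, where its value was 0.47. The groups did not overlap for Gch1 at either time, and at 0 h 36.1% of all genes were higher in cKO without overlap. Acod1 differed by 0.55 with a wide spread between the cKO samples (98.1 and 183), and its adjusted p was 0.479 by limma. It was 0.10 without the higher cKO sample, and 1.0 and called without the lower one. Ass1 was measured lower in cKO by -0.64 (95% interval -1.44 to 0.17, adjusted p = 0.299 by limma) and Asl by -0.16 (adjusted p = 0.514), with no overlap between the groups for either gene, as for 20.9% of all genes in that direction. Neither was called. Slc7a2 differed by 0.01 with a 95% interval from -0.82 to 0.84. The interval of Slc7a2 reaches differences that would exceed the fold of 1.5 in either direction, so at 2 samples a group its resting levels were not resolved more finely.

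A difference of the genotype effect between 0 h and 4 h was tested with an interaction term, fitted on all 8 samples. None of the 5 genes with values at both times passed an adjusted p under 0.05 in limma (0 of 5), against 3.05% of 16284 genes (2.12% after centring, again with 0 of the 5). The largest value was that of Ass1, whose genotype effect at 4 h exceeded that at 0 h by 1.15 on the log2 scale (standard error 0.42, adjusted p = 0.206 by limma). Asl followed with 0.72 (standard error 0.21, adjusted p = 0.148 by limma). After centring Ass1 had 0.88 and Asl 0.45, with unadjusted p values of 0.131 and 0.159 by limma. The values for Slc7a2 (0.48), Gch1 (0.06) and Acod1 (-0.17) had adjusted p values by limma from 0.455 to 0.898. No interaction is given for Nos2, since it was listed at 0 at 0 h.

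A ratio within a sample was also taken for Acod1 and Nos2. Acod1 coverage was 7.67 and 6.80 times that of Nos2 in WT at 4 h, and 4.08 and 4.48 times in cKO, so the ratio was lower in both cKO samples. These ratios are given as a description, with no test, and an exact permutation test with 2 samples against 2 has 0.333 as its smallest two-sided p.

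The genes whose pattern was most like that of each of the 6 were found among 16278 other genes. Likeness was the smallest root mean square difference over the 8 samples of log2 values on the deposited scale. Here each gene was centred on its own mean, and samples were not centred on their median. For Acod1 these were the chemokine gene Ccl5 (0.32), Gm14963 (0.35) and the cytokine gene Tnf (0.41), where the median of all genes was 5.89. Gch1 was closest to Gnb4 (0.14), the interferon-induced Ifitm3 (0.15) and Dcbld2 (0.16), with a median of 2.36. Ass1 was closest to Nfkbie (0.23), which encodes an inhibitor of NF-κB, and to Ehd1 and Jdp2 (0.27 each), with a median of 2.99. The closest genes to Slc7a2 were Gm48277 (0.19), 4933416M07Rik (0.25) and Gm47118 (0.30), with a median of 4.01, and all 3 were listed at 0 in every 0 h sample and at most 16.3 at 4 h. Asl was closest to Mon1b (0.09), Mrfap1 (0.10) and Rbm14 (0.11), with a median of 0.80. For Nos2 the nearest were Serpina3f (1.33), Il12b (1.65) and Iigp1 (1.75), and these values depend on the pseudocount because Nos2 is listed at 0 at 0 h. The same holds for the 3 genes closest to Slc7a2 and for Gm14963, which was listed at 0 at 0 h as well. The 8 samples share their groups, so likeness over them mainly reflects the 4 group means.

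Other genes of the same pathways were examined as lists and described by counts. Of 8 cationic amino acid transport genes, 5 were called higher and 0 lower in cKO at 4 h, on the deposited scale (20.8% and 4.17% of all genes) and after centring (10.4% and 9.90%) alike. Slc7a6, a transporter of cationic and neutral amino acids, was measured at 55.6 and 44.8 in WT against 170 and 197 in cKO (log2 fold change 1.87, adjusted p = 0.0492 by limma). Its partner chain Slc3a2 was measured at 6920 and 5813 in WT against 13645 and 15652 in cKO (log2 fold change 1.20). The lysosomal arginine sensor Slc38a9 followed at 1.18, the arginine transporter Slc7a1 at 1.10 and the mitochondrial ornithine carrier Slc25a15 at 1.06. The adjusted p values by limma of Slc3a2 (0.0605), Slc38a9 (0.111), Slc7a1 (0.0804) and Slc25a15 (0.0529) were above 0.05. The median of this list was 1.14, and at 0 h 3 of the 8 were called higher in cKO against 8.99% of all genes (2 after centring, against 7.25%), Slc7a3, Slc7a6 and Slc38a9. Slc7a2, the transporter among the 6 main genes, had 0.50 at 4 h and was below each of the 5 called ones.

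Of the 9 nitric oxide synthase relatives and partners tested at 4 h, Calm3, Ddah2 and Nosip were called higher in cKO and 0 lower, and after centring 1 was (Calm3). At 4 h these and the following counts stand against 20.8% of all genes called higher and 4.17% lower, or 10.4% and 9.90% after centring. Calm3, which encodes calmodulin, stood at 868 and 1003 in WT against 2932 and 3080 in cKO at 4 h (log2 fold change 1.69, adjusted p = 0.0455 by limma). It was called at 0 h too, with 1.08. The other synthases, Nos1 and Nos3, were at most 0.589 in any sample. For the BH4 cofactor genes beside Gch1, 0 of 5 tested were called at 4 h and 2 of 7 were called lower in cKO at 0 h (5.61% of all genes were), Qdpr and Spr (-0.59 each). Gchfr, which encodes the feedback regulator of the Gch1 enzyme, was listed at 0 in all 4 h samples. In the polyamine and proline branch that uses ornithine, 0 of 16 were called higher and 1 lower (Pycr1, -0.65) at 4 h. With stimulation 2 of the 16 were called higher and 10 lower in WT, and 1 and 7 in cKO, against 11.9% and 55.1% of all genes in WT and 13.7% and 53.2% in cKO. After centring the counts were 7 and 2 in WT and 7 and 3 in cKO, against 33.5% and 22.4% and 32.7% and 23.2%. Odc1, the ornithine decarboxylase gene, was among those called higher, by 1.66 in WT and 1.59 in cKO (centred 3.11 and 2.80). Of 19 genes for the precursors and fate of itaconate, 5 were called higher, a share near that of all genes, among them Idh3b (0.77) and Aco1 (0.72), and 2 lower, Slc13a3 (-0.82) and Clybl (-0.72). After centring 0 of these 19 were called higher and 3 lower. Of the 2 other genes of the urea cycle and arginine use that were tested, Gamt was called higher at 4 h (0.76) but not after centring (0.42). Gatm was not called at 4 h (-0.38) but was called lower there after centring (-0.72), and at 0 h it was called lower on both scales (-0.63, centred -0.73).

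**Figure D4:**
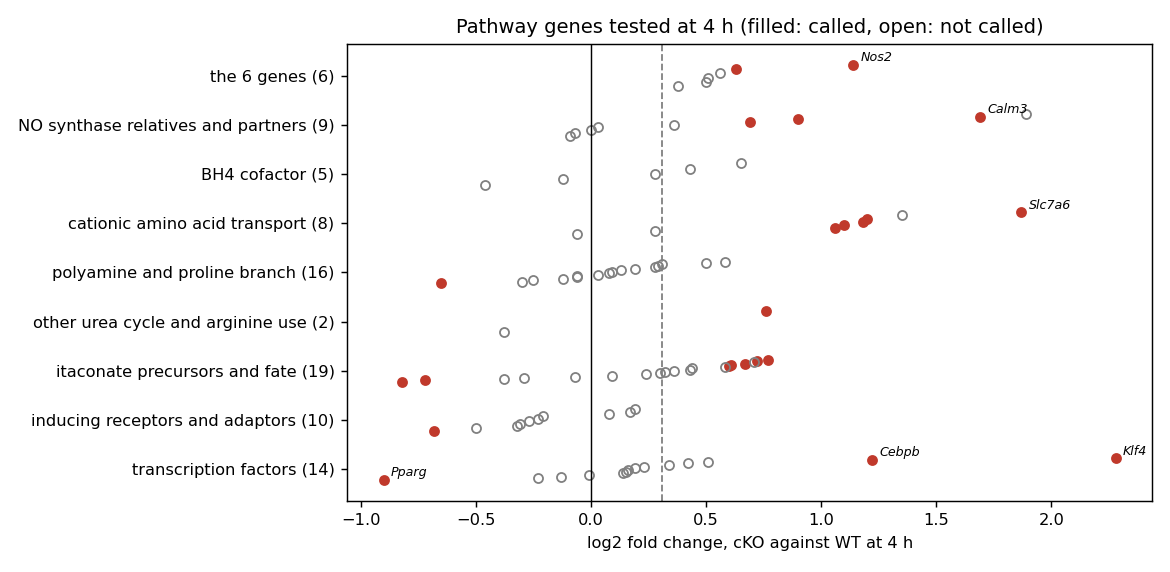
Genotype effect at 4 h (cKO against WT, log2 fold change) for the tested genes of each list, with the number tested in brackets. Filled red points passed the call rule of the study, open points were not, points are spread vertically for visibility, and the dashed line is the median of all tested genes (0.31). The 6 genes all lie to the right of it, with Nos2 at 1.14.

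Genes that carry the IFNγ and LPS signals were examined in the same way. Of 14 transcription factors, 9 were called higher and 3 lower with stimulation in WT and 10 and 3 in cKO, against 11.9% and 55.1% of all genes in WT and 13.7% and 53.2% in cKO. After centring 11 were called higher and 1 lower in each genotype, against 33.5% and 22.4% of all genes in WT and 32.7% and 23.2% in cKO. Irf1 was among those called higher, at 4.18 and 4.81 (centred 5.63 and 6.02). Between genotypes at 4 h, Klf4 (2.28) and Cebpb (1.22) were called higher in cKO and Pparg (-0.90) lower, on both scales, so 2 of the 14 were higher and 1 lower, against 20.8% and 4.17% of all genes. Klf4 coverage at 4 h was 203 and 148 in WT against 747 and 943 in cKO, and at 0 h it was 67.2 to 81.4 in all 4 samples. Its interaction value was 2.38 (adjusted p = 0.0303 by limma), which did not pass after centring. Of 10 receptors and adaptors, 0 were called higher and 1 lower in cKO at 4 h (Ticam2, -0.68), and 5 lower after centring, where 9.90% of all genes were. At 0 h 1 of the 10 was called lower and 0 higher on both scales, near the 5.61% lower (6.98% after centring) and 8.99% higher (7.25%) of all genes, and the 1 was Ifngr1, which encodes the ligand-binding chain of the IFNγ receptor (-0.66, centred -0.75, adjusted p = 0.122 by limma). Its coverage was 5355 and 4998 in WT against 3249 and 3308 in cKO at 0 h, and 670 and 850 against 612 and 603 at 4 h. Tlr4, the LPS receptor, stood at 136 and 154 in WT against 100 and 105 in cKO at 4 h, and at 721 and 811 in WT against 1082 and 1135 in cKO at 0 h. Its interaction value of -1.04 had an adjusted p of 0.0482 by limma and passed after centring as well.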

How the data were processed

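RNA-seq of 8 BMDM samples was used, and each sample was given its group from its title (the labels name the stimulation for 0 h samples too, which were taken as unstimulated from their titles). Per the submitters' processing notes and the paper's methods, the authors aligned paired-end reads with HISAT2 2.2.1 to mm10 and quantified genes with StringTie 2.1.7. They deposited 1 coverage signal per gene and sample, in 1 table for each time. The unit is not named and was read from the values: of 2255 low values of single-transcript genes, 36.9% lay within 0.02 of a whole number of bases, where spacing alone gives 4%. Reads per value are unknown, so no counting interval was computed and no count test was run, although the design allowed for counts. The deposited fold changes and p-values of the authors' own comparisons were not used. The number of per-sample columns left unused was 0.

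Log2(coverage + 0.1) was compared by limma 3.58.1 (R 4.3.3) for genes with a mean of at least 0.5 in the samples fitted, and a pseudocount understates the change of low genes. A gene was called at a fold above 1.5 and an unadjusted p under 0.05, as in the study, and Benjamini-Hochberg adjusted p values over all tested genes stand beside it. Values stay on the deposited scale, with the median-centred value beside them. Alternatives covered the pseudocount, filter, scaling, variance estimate, samples fitted, call rule, replicate block and each sample left out. The comparison was tested on simulated coverage, and with 2 samples a group an adjusted p that misses the threshold does not show that values did not differ. The 6 genes, the pathway lists and the tests were chosen with earlier results of these data known. Named are the 6 genes, Nudt21, called genes of each list with the largest changes and the 3 most alike genes. A few further genes (Slc25a15, Slc7a1, Nos1, Nos3, Gchfr, Gatm, Tlr4, Ifngr1, Irf1 and the cell type markers) were named after their values were seen. Some genes of the original lists are not reported here. Positions and 3'UTRs came from GENCODE M21 on GRCm38.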

Additional observations from a re-analysis of the deposited data

Results flagged for a closer look

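For Ass1 both cKO samples lay below both WT samples at 0 h (57.6 and 77.7 against 90.1 and 120) and above them at 4 h (2534 and 2420 against 2209 and 1368), so the genotype effect had opposite signs at the 2 times. The difference of the effects was 1.15 on the log2 scale (adjusted p = 0.206 by limma over all 8 samples), and 0.88 after centring (adjusted p = 0.365), so it did not pass the adjustment. It ranged from 0.80 to 1.49 over 16 alternatives and was positive in all of them.

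Asl moved in the same way by the deposited values, with cKO below WT at 0 h (506 and 565 against 584 and 608) and above it at 4 h (401 and 338 against 275 and 227). Its difference of effects was 0.72 (adjusted p = 0.148 by limma over all 8 samples), and 0.45 after centring (adjusted p = 0.403). It too did not pass the adjustment, and it ranged from 0.45 to 0.85 over 16 alternatives.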

How the results depend on the processing

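Over the alternatives, the values of single genes kept their direction and their side of the threshold in 333 cases. They kept their direction but were no longer called in 9, were newly called in 6, and changed sign in 15. A case that changed sign was counted only as such, also where its call changed, as for Asl with stimulation after centring in both genotypes. No cause of these changes was tested. Nos2 at 4 h (0.80 to 1.18, adjusted p from 0.00089 to 0.324 by limma) stayed called in all 13 alternatives, and the 4 induced genes with a fold in all 14 of each genotype. Gch1 at 4 h was no longer called in 8 of 13 alternatives. With 2 pools per group the spread is poorly known; leaving out a sample leaves 1 in its group, which is assumed to vary like the others. edgeR and DESeq2 were not run, since coverage is not a count.

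At 4 h the count of the 6 genes called higher was 1 after centring, at equal summed coverage, after quantile normalization, with unmoderated variances and with adjusted p values, and all genes called higher and lower were 1552 and 1480 after centring, 1941 and 1013 at equal summed coverage, 1530 and 1476 after quantile normalization and 498 and 79 with adjusted p values, with 386 lower for unmoderated variances. Leaving out 1 sample gave 1 to 3 of the 6 genes higher at 4 h, 1 without WT sample 2 or cKO sample 3 or 4 and 3 without WT sample 1 (Ass1 too), and 1765 to 4000 genes higher and 478 to 862 lower among all (1996 without cKO sample 3, 1765 without cKO sample 4). At 0 h 1 of the 5 tested genes (Ass1) was called lower at equal summed coverage and with an intensity trend. Among all genes, 1207 were called lower at equal summed coverage and 865 with an intensity trend. Adjusted p values gave 114 higher and 53 lower among all genes at 0 h. With 1 sample left out, the log2 fold change of Gch1 at 0 h ranged from 0.44 to 0.69 (highest without WT sample 2). That of Acod1 ranged from 0.1 to 1 (highest without cKO sample 3), and that of Ass1 from -0.85 to -0.42. The log2 fold change of Slc7a2 at 0 h was -0.08 after centring, -0.11 at equal summed coverage, -0.07 after quantile normalization, and from -0.23 to 0.25 with 1 sample left out (-0.18 without WT sample 1, -0.23 without cKO sample 3).

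For stimulation in WT, 0 of the 5 genes (Nos2 left out) were called lower after centring or quantile normalization, with 5361 higher and 3581 lower and 3552 higher and 4607 lower among all genes. In cKO 0 were lower after either, with 5305 and 3758 after centring and 3585 and 4999 after quantile normalization. With 1 sample left out, 4 were higher and 1 lower in WT (all genes 1668 to 1789 higher, 6717 to 8812 lower), and 4 higher and 0 to 1 lower in cKO (Asl without cKO 4 h sample 3; all genes 1975 to 2253 higher, 7149 to 8223 lower). Centring turned Asl to 0.20 in WT and to 0.67 in cKO, where quantile normalization gave 0.16 for Asl.

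The interaction called 746 genes higher and 247 lower without a filter, 1035 and 247 with an intensity trend, and 174 higher after centring and 210 after quantile normalization. With 1 sample left out it called 0 of the 5 genes higher and 0 lower, and 117 to 546 genes higher and 67 to 146 lower among all, both lowest without cKO 4 h sample 4. Leaving out each of the other samples except WT 4 h sample 2 gave 154 to 241 higher. The interaction of Gch1 was -0.20 after centring, -0.03 at equal summed coverage, -0.17 after quantile normalization, and -0.09 to 0.21 with 1 sample left out (-0.06 without WT 0 h sample 2, -0.09 without WT 4 h sample 2). That of Acod1 was 0.27 after quantile normalization and -0.62 to 0.29 with 1 sample left out (0.29 without cKO 0 h sample 4). The replicate numbers recur at both times, but same-numbered samples hardly deviated together (r = 0.020 in WT and 0.024 in cKO over 16284 genes, which are not independent), so they were not treated as pairs. Adding it as a replicate block, the interaction called 15 genes higher and 16 lower, and the block changed no call among the 5 genes in the stimulation effects.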
